A study of Penicillium oxalicum with 15 samples.

Results

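The comparison set the strain gClrBID grown on glucose, where no inducing polymer was supplied, against the reference strain M12 grown on cellulose, the natural inducer, in the filamentous fungus Penicillium oxalicum. Per the labels, gClrBID carries an overexpressed ClrB internal mutant, ClrB being a transcription factor, and M12 is the control strain of the series. Mycelia of both were pregrown in Vogel's medium (22 h, 2% glucose) and then kept for 4 h on 2% glucose (gClrBID) or 2% cellulose (M12), at 30 °C and 200 rpm. The promoter of the ClrB construct, the nature of the internal change, the fate of the native copy and the number of transformants are not stated in the labels. The groups have 3 libraries each, 6 of the 15 of the series, and the other 9 are gClrBID on cellulose, a creA deletion strain on cellulose and M12 on glucose. They are biological triplicates per the series text, which does not describe the cultures, so each p-value reflects only how libraries spread. For fold changes and their adjusted p-values that spread was estimated over all 15 libraries, not only the 6 compared. Members are the genes that reached 1 FPKM (fragments scaled by gene length and library total) in at least 3 of the 15 libraries, 8765 of the 9976 genes in the table. Strain and carbon source change together here, so their parts in a difference cannot be told apart.

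Filamentous fungi keep cellulase genes low on glucose through the carbon catabolite repressor CreA and raise them when soluble products of cellulose reach the cell. In Penicillium oxalicum the zinc cluster factor ClrB activates cellulase genes, XlnR activates xylanase genes and AmyR activates amylase genes. Cellobiohydrolases cut cellulose chains from their ends, endoglucanases cut inside them, lytic polysaccharide monooxygenases cleave them by oxidation, and beta-glucosidases split the cellobiose that is released.

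The table pairs no names with its identifiers. Names are given for 15 locus tags whose identity is known from earlier work on the species. The enzyme and transporter genes are cel6A (PDE_07124), cel7A-2 (PDE_07945), cel5B (PDE_09226), cel7B (PDE_07929), cel61A (PDE_05633), bgl2 (PDE_00579), xyn10A (PDE_08094), cdtC (PDE_00607), amy15A (PDE_09417) and amy13A (PDE_01201). The regulator genes are clrB (PDE_05999), amyR (PDE_03964), creA (PDE_03168), brlA (PDE_00087) and xlnR (PDE_07674). A further tag in the beta-glucosidase list is given as PDE_02736. The deletion strain checks the tag of creA, at 0.105, 0.0542 and 0 FPKM in its 3 libraries. For clrB the libraries of the strain labelled as overexpressing it gave no single direction, with more transcript than M12 on glucose and less than M12 on cellulose, so they do not settle its tag. No value checks the remaining names.

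Libraries held 10129678 to 13427084 fragments in gClrBID on glucose and 13621153 to 15930715 in M12 on cellulose, worked back from the FPKM values. Pearson's r between replicates, across genes on the log2(FPKM + 1) scale, was 0.995 to 0.996 in both groups. The median SD between replicates on that scale was 0.08 in gClrBID on glucose and 0.07 in M12 on cellulose. Replicates differed by 3.57 to 5.03 times the squared difference that counting error gives, so no library was a copy of another.

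Transcripts of clrB, the activator altered in the strain, were 3.08 times as abundant in gClrBID on glucose as in M12 on cellulose. The clrB level was 465, 488 and 456 FPKM in the 3 gClrBID libraries on glucose and 160, 148 and 150 FPKM in the 3 M12 libraries on cellulose. The groups did not overlap, and the log2 fold change was 1.62 ± 0.11 (SE, n = 3 per group) with an adjusted p of 6.9e-10. Fold changes and adjusted p-values here and below come from limma on log2(FPKM + 1), adjusted by Benjamini and Hochberg over all 8765 genes, and a gene is described as called when the adjusted p is under 0.05. On cellulose the order of the strains was the other way round, at 56.0, 76.2 and 88.8 FPKM in gClrBID, all below the M12 libraries (log2 fold change -1.06 ± 0.11, SE, adjusted p = 6.6e-07), while on glucose M12 stood at 10.1 ± 0.345 FPKM (SD, n = 3). More clrB transcript in gClrBID than in M12 was thus seen on glucose and not on cellulose. Fragments of a mutant and a native copy would be counted under the same tag, so the value does not separate them. In bulk mycelium, fewer cells of a type and less RNA per cell cannot be told apart.

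All 16 named genes were called, 8 higher and 8 lower in gClrBID on glucose. Of all tested genes 86.3% were called, 34.6% higher and 51.6% lower, so that a call by itself set few genes apart. The share of all tested genes without overlap between the groups was not counted, so a lack of overlap is only described for single genes. The direction differed between the lists. Of the 5 cellulase genes 4 were higher, with a median log2 fold change of 3.48, and both amylolytic genes were lower, with a median of -5.15, beside a median of -0.28 over all tested genes. The beta-glucosidase list split, the xylanase gene and the cellodextrin transporter gene were both higher, and of the 5 regulator genes clrB was higher and 4 were lower. These lists were chosen with earlier results of these data known, so their counts are a description.

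**Figure D1:**
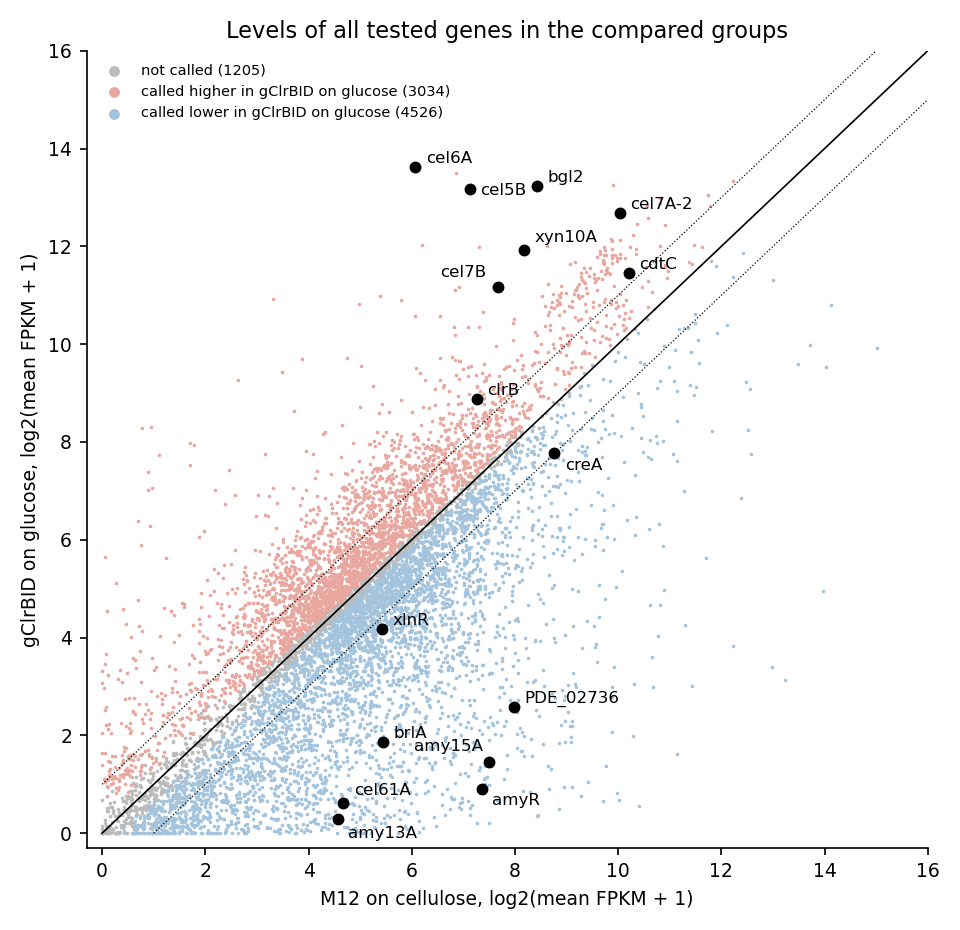
Mean level of each of the 8765 tested genes in gClrBID on glucose (vertical) against M12 on cellulose (horizontal), both as log2(mean FPKM + 1), with the 16 named genes in black; the solid line marks equal levels and the dotted lines 2-fold differences. cel6A, cel5B, bgl2 and xyn10A lie far above the line, and amyR, amy15A, amy13A and cel61A far below it.

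Among the cellobiohydrolase genes the difference was far larger for cel6A than for cel7A-2. cel6A, whose product works from the non-reducing chain ends, stood at 12208, 12168 and 13330 FPKM in gClrBID on glucose, against 66.5, 58.4 and 73.3 FPKM in M12 on cellulose. Every gClrBID library exceeded every M12 library, and the means differed by 190 times (log2 fold change 7.56 ± 0.08, SE, adjusted p = 2.1e-19). By mean FPKM cel6A was rank 1 of the 8765 genes in gClrBID on glucose and rank 2399 in M12 on cellulose.

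cel7A-2, whose product works from the reducing chain ends, stood at 6471, 6474 and 6844 FPKM in gClrBID on glucose and at 997, 1031 and 1109 FPKM in M12 on cellulose. The groups were again apart, by 6.31 times in the means (log2 fold change 2.66 ± 0.08, SE, adjusted p = 1.9e-14). It was rank 12 in gClrBID on glucose and rank 132 in M12 on cellulose, where it was the most abundant of the 5 cellulase transcripts.

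The endoglucanase genes differed in the same direction by unequal amounts. cel5B reached 8754, 9224 and 9717 FPKM in gClrBID on glucose, against 134, 136 and 145 FPKM in M12 on cellulose, 66.7 times as much (log2 fold change 6.05 ± 0.13, SE, adjusted p = 1.7e-16). cel7B reached 2257, 2216 and 2384 FPKM in gClrBID on glucose, against 199, 205 and 208 FPKM in M12 on cellulose, 11.2 times as much (3.48 ± 0.06, SE, adjusted p = 1.5e-17). In neither gene did the groups overlap, and cel5B was the higher of the pair in gClrBID on glucose while cel7B was the higher in M12 on cellulose.

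cel61A, for a lytic polysaccharide monooxygenase, went the other way from the cellulase genes above. It stood at 0.695, 0.263 and 0.612 FPKM in gClrBID on glucose, from 7, 2 and 6 fragments, against 24.5, 24.1 and 25.03 FPKM in M12 on cellulose, from 250, 266 and 299 fragments. The log2 fold change was -4.08 ± 0.13 (SE, adjusted p = 2.3e-14), on a scale that understates changes near 0. In gClrBID on cellulose the same gene stood at 135 ± 30.1 FPKM (SD, n = 3).

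**Figure D2:**
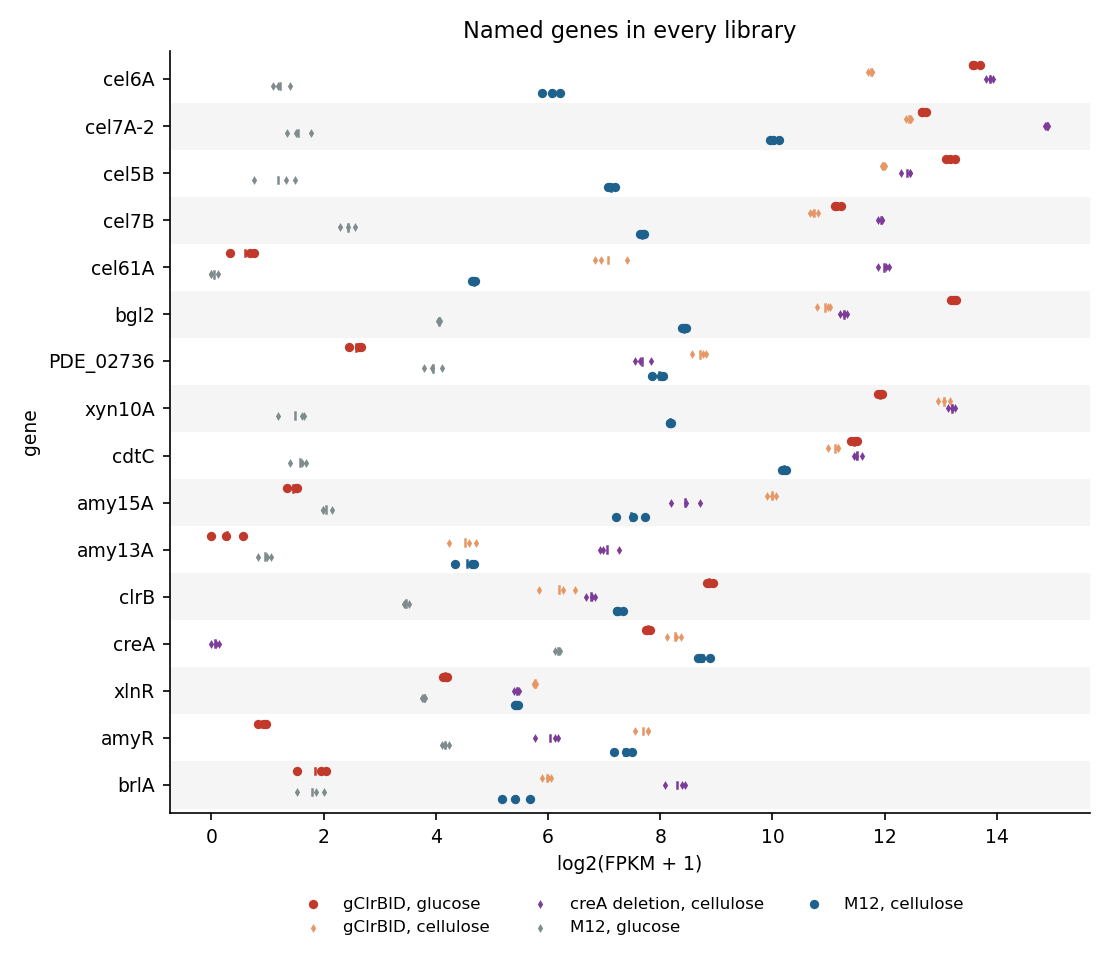
Level of each named gene in every library as log2(FPKM + 1), with 1 point per library and a short bar at the mean of 3; circles show gClrBID on glucose (top of each row) and M12 on cellulose (bottom), and diamonds the other 3 groups. The red and blue circles do not overlap for any gene, and for cel61A, amy13A and amyR the red circles lie near 0. The share of all 8765 tested genes without overlap was not counted, while 86.3% of them were called.

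The make-up of the cellulase transcripts therefore differed between the groups. FPKM is per length, so levels of different genes can be set side by side within a library, and such shares do not depend on the scaling between libraries. cel6A held 41.1, 40.5 and 41.3% of the summed FPKM of the 5 cellulase genes in gClrBID on glucose, against 4.68, 4.01 and 4.69% in M12 on cellulose. cel7A-2 held 21.5 ± 0.295% in gClrBID on glucose and 70.7 ± 0.495% in M12 on cellulose (SD, n = 3 each).

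The endoglucanase transcripts were also exchanged in weight. cel5B held 30.1 ± 0.590% in gClrBID on glucose and 9.37 ± 0.0537% in M12 on cellulose. cel7B held 7.45 ± 0.130% in gClrBID on glucose and 13.8 ± 0.435% in M12 on cellulose (SD, n = 3 each). The share of cel61A was 0.00170 ± 0.000751% in gClrBID on glucose and 1.66 ± 0.0593% in M12 on cellulose. For each of the 5 shares the groups did not overlap, and the two-sided exact permutation test gave p = 0.1, the smallest that 3 against 3 libraries allow.

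**Figure D3:**
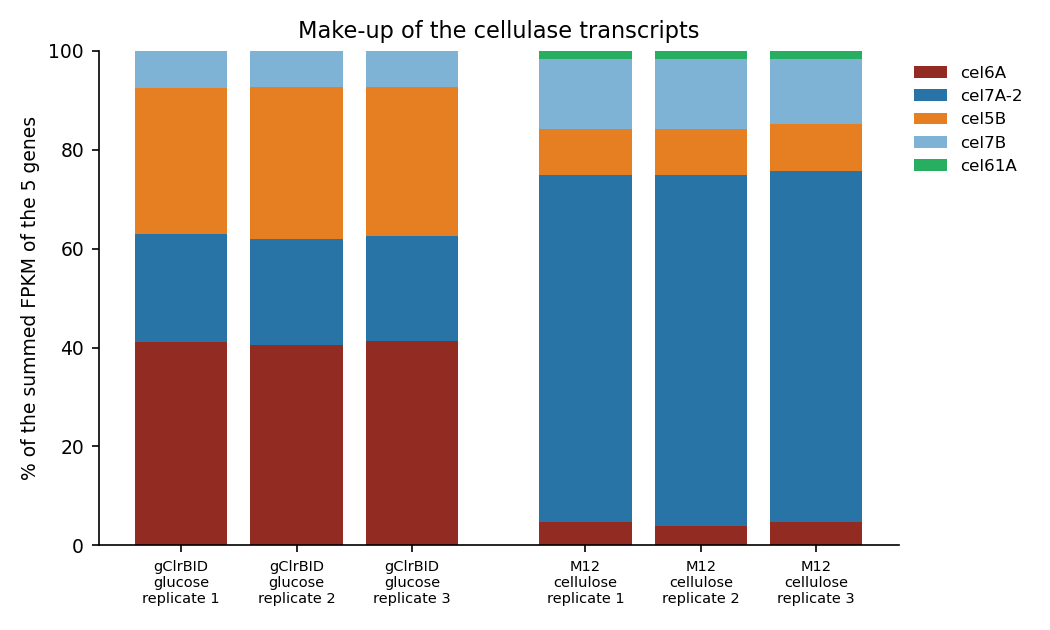
Share of each of the 5 cellulase genes in their summed FPKM (percent, vertical), with 1 stacked bar per library for gClrBID on glucose (left) and M12 on cellulose (right). cel6A and cel5B make up most of each gClrBID bar, and cel7A-2 makes up 70.1 to 71.1% of each M12 bar.

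Expressed as a ratio, there were 1.89, 1.88 and 1.95 cel6A transcripts per cel7A-2 transcript in gClrBID on glucose, against 0.0667, 0.0566 and 0.0661 in M12 on cellulose. The ratio of cel5B to cel7B was 4.04 ± 0.145 in gClrBID on glucose and 0.679 ± 0.0193 in M12 on cellulose (SD, n = 3 each). Both ratios had p = 0.1 in the two-sided exact permutation test, the lower limit of this design.

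Set against the transcript of their activator, the cellulase genes also differed. There were 26.8 ± 2.20 cel6A transcripts per clrB transcript in gClrBID on glucose and 0.433 ± 0.05 in M12 on cellulose. For cel7A-2 the ratio to clrB was 14.1 ± 0.878 in gClrBID on glucose and 6.87 ± 0.595 in M12 on cellulose. The ratio of cdtC to clrB went the other way, at 6.0 ± 0.298 in gClrBID on glucose and 7.74 ± 0.403 in M12 on cellulose (SD, n = 3 each). In all 3 ratios the libraries of the groups did not overlap (two-sided exact permutation p = 0.1 each). The clrB term includes any mutant transcript, so the ratios are per tag and not per native ClrB.

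The beta-glucosidase genes moved in opposite directions. bgl2, for an intracellular enzyme, stood at 9303, 9654 and 9845 FPKM in gClrBID on glucose, against 333, 350 and 342 FPKM in M12 on cellulose. The groups were far apart, with a log2 fold change of 4.81 ± 0.06 (SE, adjusted p = 5.2e-19), and bgl2 was rank 5 of all genes in gClrBID on glucose and rank 498 in M12 on cellulose. PDE_02736 stood at 4.49, 5.19 and 5.32 FPKM in gClrBID on glucose, against 231, 257 and 264 FPKM in M12 on cellulose, a log2 fold change of -5.39 ± 0.09 (SE, adjusted p = 2.2e-17). Per cel7A-2 transcript, bgl2 stood at 1.46 ± 0.0306 in gClrBID on glucose and at 0.327 ± 0.0166 in M12 on cellulose (SD, n = 3 each).

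The xylanase gene and the cellodextrin transporter gene were both higher in gClrBID on glucose. xyn10A stood at 3784, 3890 and 3937 FPKM in gClrBID on glucose, against 287, 287 and 293 FPKM in M12 on cellulose (log2 fold change 3.74 ± 0.09, SE, adjusted p = 1.7e-15). This gene was higher still in gClrBID on cellulose, at 8499 ± 626 FPKM (SD, n = 3), the reverse of the order of the cellobiohydrolase genes within that strain. cdtC, which imports cellodextrins, stood at 2716, 2839 and 2894 FPKM in gClrBID on glucose, against 1181, 1211 and 1145 FPKM in M12 on cellulose. Its log2 fold change of 1.26 ± 0.07 (SE, adjusted p = 4.1e-11) was the smallest among the raised enzyme and transporter genes named here, and the groups did not overlap.

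The amylolytic genes, for enzymes of starch breakdown, were nearly without transcript in gClrBID on glucose. They were also low in M12 on glucose, at 3.13 ± 0.253 FPKM for amy15A and 0.953 ± 0.163 FPKM for amy13A (SD, n = 3 each). amy15A, for a glucoamylase, stood at 1.87, 1.55 and 1.84 FPKM in gClrBID on glucose, against 211, 147 and 182 FPKM in M12 on cellulose, 102 times lower in the means (log2 fold change -6.02 ± 0.12, SE, adjusted p = 1.6e-16). amy13A, for an alpha-amylase, stood at 0.475, 0 and 0.203 FPKM in gClrBID on glucose, from 12, 0 and 5 fragments, against 24.6, 19.3 and 23.9 FPKM in M12 on cellulose. The log2 fold change of amy13A was -4.28 ± 0.15 (SE, adjusted p = 1.4e-13), on a scale that understates changes near 0. It was -6.45 with a pseudocount of 0.1 and -7.17 with voom on whole fragments. A count of 0 in the second gClrBID library allows up to 0.157 FPKM, from 3 fragments and covering counting error only.

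Their activator gene amyR showed the largest difference among the regulator genes. amyR stood at 0.768, 0.965 and 0.913 FPKM in gClrBID on glucose, from 18 to 22 fragments per library, against 180, 144 and 167 FPKM in M12 on cellulose. The means differed by 185 times (log2 fold change -6.44 ± 0.10, SE, adjusted p = 1.0e-17). There were 537 ± 59.4 clrB transcripts per amyR transcript in gClrBID on glucose, against 0.939 ± 0.0786 in M12 on cellulose (SD, n = 3 each), with p = 0.1 in the two-sided exact permutation test. Per amyR transcript, amy15A stood at 2.02 ± 0.415 in gClrBID on glucose and at 1.09 ± 0.0758 in M12 on cellulose, where the libraries of the groups were also apart.

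creA, the repressor gene, stood at 224, 213 and 217 FPKM in gClrBID on glucose, against 407, 423 and 472 FPKM in M12 on cellulose. The glucose level of gClrBID was thus lower than the cellulose level of M12, without overlap (log2 fold change -0.99 ± 0.07, SE, adjusted p = 5.8e-10). This log2 fold change was -0.73 when libraries were scaled by median of ratios. On glucose the order of the strains was the other way round, with M12 at 71.3 ± 2.37 FPKM (SD, n = 3). The log2 fold change of gClrBID over M12 on glucose was 1.60 ± 0.07 (SE, adjusted p = 3.7e-12 by limma). The clrB to creA ratio was 2.16 ± 0.113 in gClrBID on glucose and 0.353 ± 0.0381 in M12 on cellulose (SD, n = 3 each).

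xlnR, the activator gene of xylanases, was lower, while the xylanase gene xyn10A was higher. xlnR stood at 17.3, 17.2 and 16.5 FPKM in gClrBID on glucose, against 41.9, 43.2 and 41.4 FPKM in M12 on cellulose (log2 fold change -1.26 ± 0.05, SE, adjusted p = 3.2e-13). There were 228 ± 9.68 xyn10A transcripts per xlnR transcript in gClrBID on glucose and 6.85 ± 0.220 in M12 on cellulose (SD, n = 3 each), without overlap (two-sided exact permutation p = 0.1).

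brlA, a regulator of conidiation and the marker of asexual development used here, stood at 1.90, 3.12 and 2.89 FPKM in gClrBID on glucose, against 35.3, 41.4 and 50.2 FPKM in M12 on cellulose. The log2 fold change was -3.58 ± 0.15 (SE, adjusted p = 1.2e-12). A sign of development thus moved with the groups, and its part in the other differences was not tested. On glucose M12 stood at 2.51 ± 0.564 FPKM, and gClrBID was not called against it (log2 fold change 0.05 ± 0.15, SE, adjusted p = 0.8 by limma). On cellulose brlA stood at 62.3 ± 3.54 FPKM in gClrBID and at 317 ± 40.5 FPKM in the creA deletion (SD, n = 3 each).

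Both groups were also set against M12 on glucose, which shares its carbon source with gClrBID on glucose and its strain with M12 on cellulose. For cel6A the log2 fold change was 12.39 ± 0.08 for gClrBID on glucose and 4.83 ± 0.08 for M12 on cellulose, both over M12 on glucose (SE, n = 3 per group). For cel7A-2 the values were 11.15 ± 0.08 and 8.49 ± 0.08, and for cdtC 9.89 ± 0.07 and 8.63 ± 0.07, in the same order. For cel61A they were 0.56 ± 0.13 and 4.63 ± 0.13, and for amyR -3.26 ± 0.10 and 3.18 ± 0.10. The cel61A values rest on 0, 0 and 1 fragments in M12 on glucose and on 7, 2 and 6 in gClrBID on glucose. Means in M12 on glucose were also low for cel6A (1.35 FPKM), cel7A-2 (1.93 FPKM) and cdtC (1.98 FPKM). The log2(FPKM + 1) scale understates changes from such levels. PDE_02736 fell by 1.37 ± 0.09 in gClrBID on glucose and rose by 4.03 ± 0.09 in M12 on cellulose. All of these changes were called by limma, and the comparisons share the M12 glucose libraries, so they are only set side by side.

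Together the 10 named enzyme genes, cdtC not counted, took 5.99, 6.10 and 6.45% of all fragments in gClrBID on glucose, against 0.408, 0.410 and 0.435% in M12 on cellulose. The high end of the transcriptome was exchanged as well. Of the 100 genes with the highest mean FPKM in each group 27 were shared, which is 27% of each list, and of the 10 highest none was shared. Of the named genes 7 were among the 100 highest in gClrBID on glucose and 0 in M12 on cellulose. The 10 most abundant genes held 9.98 ± 0.307% of fragments in gClrBID on glucose and 8.46 ± 0.0803% in M12 on cellulose, but 8.93 and 13.9% of the summed FPKM, so no direction can be read from this share.

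Over all tested genes 3034 were called higher and 4526 lower in gClrBID on glucose. For 4007 genes, 45.7% of those tested, the 95% interval of the log2 fold change lay wholly within 2-fold. At a minimum of 2-fold 1357 genes were higher (15.5%) and 2631 lower (30.0%), at 4-fold 372 and 1343, and at 16-fold 45 and 385. Lower genes thus outnumbered higher ones at each size, and more so among the larger changes. Median-of-ratios scaling moved the median of all genes to -0.05 and the calls to 3670 higher and 3914 lower.

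**Figure D4:**
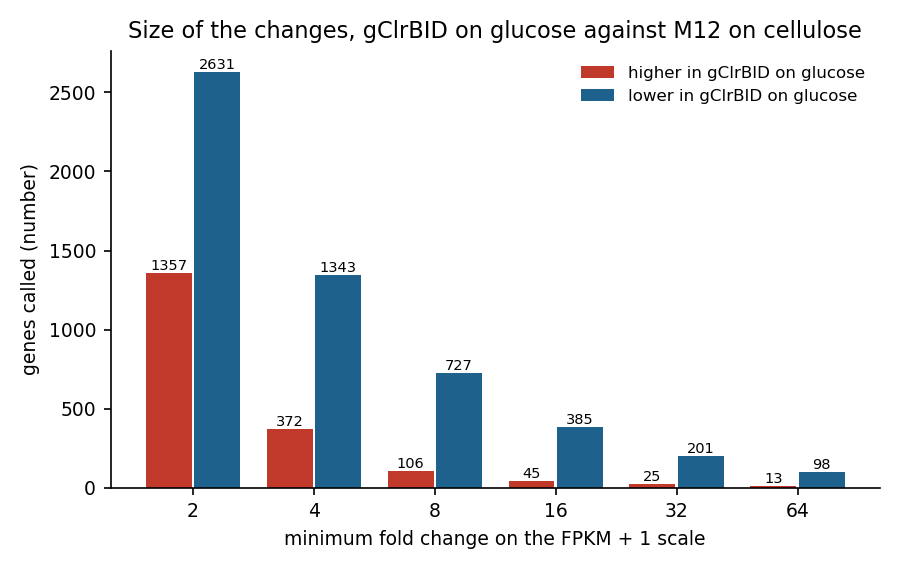
Number of genes called (vertical) at or above each minimum fold change on the FPKM + 1 scale (horizontal, doubling steps), higher in gClrBID on glucose (red, left) or lower (blue, right). The lower genes go from 2631 at 2-fold to 98 at 64-fold, and the higher genes from 1357 to 13.

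The direction varied with the level of a gene over all 15 libraries. That average includes the compared libraries, so a gene's own rise can place it among the abundant genes. Level and direction are therefore not independent here. Of the 203 genes that averaged over 1000 FPKM, 113 (55.7%) were higher by at least 2-fold and 48 (23.6%) lower in gClrBID on glucose. Of the 1897 genes that averaged under 10 FPKM, 149 (7.85%) were higher and 688 (36.3%) lower. FPKM is a share of a library, so a rise of abundant genes lowers the FPKM of others, and the size of that effect was not tested.

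By the ranking of fold changes, PDE_06439 stood above cel6A as the most raised gene, at 1991, 1822 and 2003 FPKM in gClrBID on glucose, against 9.77, 6.84 and 10.3 FPKM in M12 on cellulose (log2 fold change 7.62 ± 0.15, SE, adjusted p = 1.3e-16). On the log2(FPKM + 1) scale the most lowered gene was PDE_09098, at 8.83, 6.33 and 8.09 FPKM in gClrBID on glucose, against 9730, 9917 and 9149 FPKM in M12 on cellulose (-10.11 ± 0.11, SE, adjusted p = 1.6e-19). It was rank 6143 in gClrBID on glucose and rank 7 in M12 on cellulose. PDE_05653 came next, at 0.389, 0.644 and 0.399 FPKM in gClrBID on glucose, against 1383, 1304 and 1357 FPKM in M12 on cellulose (-9.84 ± 0.10, SE, adjusted p = 1.4e-19). By the ratio of mean FPKM the order of the pair was reversed, at 0.000354 for PDE_05653 and 0.000807 for PDE_09098, the pseudocount of 1 being larger than the levels of PDE_05653 in gClrBID on glucose. None of the 3 has a name in the sources used here.

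Some genes were near 0 in 1 group and expressed in the other. There were 14 genes at 10 FPKM or more in all 3 gClrBID libraries on glucose and under 1 FPKM in all 3 M12 libraries on cellulose, and 177 genes the other way round. The 14 genes had a median of 24.5 FPKM in gClrBID on glucose and included no named gene. The 177 genes had a median of 0.323 FPKM in gClrBID on glucose and 27.05 FPKM in M12 on cellulose, and cel61A, amy13A and amyR were among them. In libraries that did not enter this choice, 125 of the 177 (70.6%) reached 10 FPKM in all 3 libraries of gClrBID on cellulose, beside 74.9% of all tested genes. In M12 on glucose 14 of the 177 (7.91%) did so, beside 71.3% of all tested genes. Of the 14 genes of the other set, 2 (14.3%) reached 10 FPKM in all 3 libraries of gClrBID on cellulose and 3 (21.4%) in those of M12 on glucose. Each of these groups shares its strain with 1 compared group and its carbon source with the other, so the counts are a description.

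Changed genes with consecutive tag numbers were counted, with the limit that the order of tags on the genome was not given in the sources used here. Runs of at least 5 consecutive tags, each called and changed at least 4-fold in the same direction, numbered 1 for higher and 13 for lower genes. The 13 runs held 76 genes and no named gene. The 13 runs became 8 after median-of-ratios scaling. The only run of higher genes was the 5 tags from PDE_03926 onwards, a tag singled out after its values were seen. PDE_03926 itself stood at 78.0, 76.4 and 94.5 FPKM in gClrBID on glucose, against 0.603, 0.649 and 0.626 FPKM in M12 on cellulose (log2 fold change 5.68 ± 0.14, SE, adjusted p = 1.2e-15). Log2 fold changes in this run ranged from 3.41 to 6.16.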

How the data were processed

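The authors deposited FPKM values of 9976 genes in 15 libraries, made with a stranded kit from captured mRNA, per the labels. The submitters' processing notes name HISAT2 2.0.0, featureCounts 1.5.0-p1, CASAVA 1.8 and DESeq2 without roles. Genome build, annotation and strand setting are not given in the sources used here, so fragments shared by near-identical or overlapping genes could not be assessed. No identifier matched the RefSeq gene list at hand (0 of 9976), and no sequences are shown.

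Whole fragments were worked back from the FPKM steps. All 9789 genes above 0 gave whole numbers at a rounding tolerance of 5e-05 FPKM, with lengths searched among multiples of 3, read as coding length. Another 187 genes were at 0 throughout.

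log2(FPKM + 1) was fitted with limma 3.58.1 (R 4.3.3, 1 mean per group over all 15 libraries, variance trend), for genes at 1 FPKM in at least 3 libraries. Ratios within a library were compared by two-sided exact permutation. Same-numbered replicates did not deviate together (r of -0.02 to 0.01), so no block was used. Members, lists and named genes were chosen with earlier results of these data known. Beside the 16 tags, the 2 highest and 2 lowest called fold changes were named, among genes with a mean of at least 10 FPKM in the higher group and no overlap. Alternatives covered the pseudocount, filters, scaling, the libraries in the fit, a replicate block, voom weights and leaving out each library.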

Additional observations from a re-analysis of the deposited data

How the results depend on the processing

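The 16 named genes kept their direction and call in each of 240 values over 15 alternative settings. The filters, the fit to only the 6 libraries and the replicate block leave the log2 fold changes as they were. Only the call, not the direction, could differ in those settings. With only the 6 libraries the limma adjusted p-values of the named genes were larger, at 7.95e-11 for cel6A and at most 4.88e-07, for creA. In the main fit these were 2.1e-19 and 5.8e-10. The counts of called genes per list did not change in 120 values. The log2 fold change of creA ranged from -1.05 to -0.73, that of cdtC from 1.19 to 1.52 and that of amy13A from -7.17 to -4.14. Counts of called genes moved by less than 1.5 times: with the replicate block 3032 were higher and 4521 lower, and without 1 of the 6 libraries 2938 to 2994 were higher and 4417 to 4455 lower. The replicate numbers did not pair the samples, and the block changed no call of a named gene. Genes near 0 in M12 on cellulose became 4 with a limit of 0.5 FPKM and 8 with 20 FPKM for expressed genes, and those near 0 in gClrBID on glucose 90 and 105. After median-of-ratios scaling they were 21 and 147, against 14 and 177. Runs of lower genes became 60 at 2-fold, 34 with 4 tags and 8 after median-of-ratios scaling, fewer or more genes passing by construction. By summed FPKM in place of fragments the enzyme genes held 4.17% in gClrBID on glucose and 0.253% in M12 on cellulose, and the 10 most abundant genes 8.93% and 13.9%. By fragments cel6A held 4.02% of the cellulase total in M12 on cellulose. Settings for the cel6A share, the cel6A to cel7A-2 ratio, the 95% intervals and voom with median-of-ratios factors were chosen after seeing the data. Depth limits cel61A, amy13A and amyR in gClrBID on glucose, which rest on 0 to 22 fragments per library.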

Other observations

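The make-up of the cellulase transcripts was also read in the other groups expressing them. cel6A held 23.2 ± 0.125% of the summed FPKM of the 5 cellulase genes in gClrBID on cellulose and 25.6 ± 0.548% in the creA deletion on cellulose (SD, n = 3 each). cel7A-2 held 37.3 ± 0.312% in gClrBID on cellulose and 51.6 ± 0.917% in the creA deletion. For these 2 genes both groups thus lay between gClrBID on glucose (41.0% for cel6A, 21.5% for cel7A-2) and M12 on cellulose (4.46% and 70.7%). The other shares did not all do so. cel5B held 27.1 ± 0.767% in gClrBID on cellulose and 9.22 ± 0.325% in the creA deletion, whose libraries overlapped those of M12 on cellulose. cel7B held 11.5 ± 0.410% and 6.64 ± 0.331% in the same order. For cel7B the creA deletion libraries lay below those of both gClrBID on glucose and M12 on cellulose. cel61A held 0.910 ± 0.193% in gClrBID on cellulose and 6.94 ± 0.303% in the creA deletion.

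The run of 5 raised tags that starts at PDE_03926 was low in M12 on glucose, where its genes averaged 0.0948 to 0.827 FPKM. In gClrBID on cellulose they averaged 16.5 to 330 FPKM, and in the creA deletion on cellulose 1.92 to 76.5 FPKM. Relative to clrB, cel7A-2 stood at 78.2 ± 19.97 in gClrBID on cellulose and at 282 ± 12.8 in the creA deletion on cellulose (SD, n = 3 each), both above the 14.1 of gClrBID on glucose. The clrB level was lower in these groups, at 73.7 ± 16.5 FPKM in gClrBID on cellulose and 107 ± 5.87 FPKM in the creA deletion, against 469 ± 16.4 FPKM in gClrBID on glucose. cel7A-2 itself was lower in gClrBID on cellulose than on glucose, at 5541 ± 177 against 6596 ± 214 FPKM (SD, n = 3 each), and stood at 30272 ± 493 FPKM in the creA deletion.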
